A study of Mus musculus with 6 samples.

Results

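Mettl7a1, Mettl7a2, Mettl7a3 and the Dynlt1 genes are neighbouring copies in the mouse genome, with coding sequences at least 94.26% identical within each family. They were taken as every row of the deposited expression table whose gene name starts with Mettl7a or Dynlt1, or which lists such a name among several. The rule found 7 of 24617 rows, 3 in the Mettl7a group and 4 in the Dynlt1 group, and all 7 passed the filter on low values. Mettl7a3 and Dynlt1b had drawn attention because they were called between the genotypes in these same libraries, so the members were chosen on the TNFR2-KO against wildtype values, and those values are given as a description. The fit over all rows also made calls for these rows, which are stated for completeness and support nothing.

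TNFR2-KO (TNFR2-/-) males, which lack the second receptor for tumor necrosis factor (gene Tnfrsf1b), were set against wildtype (WT) males. Both genotypes were C57Bl/6, 8 weeks of age, with distal colon as the tissue, and each gave 3 libraries from separate mice (n = 3 each). The sources used here do not give the part of Tnfrsf1b that was deleted. Messenger RNA was sequenced, and the values are FPKM, which divides the fragments of a gene by its transcript length and by the fragments mapped in that library.

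METTL7A proteins belong to a family of methyltransferases that use S-adenosylmethionine (SAM) as the methyl donor. The human protein sits in the endoplasmic reticulum membrane and on lipid droplets, and human METTL7A and METTL7B are known to methylate small thiol compounds. DYNLT1, also called Tctex-1, is a light chain of cytoplasmic dynein, the motor that carries cargo toward the minus end of microtubules, and it binds the dynein intermediate chains. The mouse carries several copies of each gene in clusters, and short reads from one copy can match another.

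The Mettl7a copies are shown first by sequence, because it decides what a read can tell apart. In the GENCODE M21 transcripts (GRCm38, the same assembly as mm10) the coding sequence of each Mettl7a gene had 732 bases. Mettl7a2 and Mettl7a3 differed at 7 of them, which is 99.0% identity, while Mettl7a1 differed from Mettl7a2 at 39 and from Mettl7a3 at 42. At 37 positions Mettl7a2 and Mettl7a3 shared a base that Mettl7a1 lacked, at 5 positions Mettl7a3 stood alone, and at 2 positions Mettl7a2 did. The stretch below covers coding bases 108 to 167, counted from 1 at the first base of the start codon, all within 1 exon on the plus strand, and it holds 9 of the differing positions. Capitals mark every base that is not the same in all 3 genes.
Mettl7a3, chr15:100335037-100335096: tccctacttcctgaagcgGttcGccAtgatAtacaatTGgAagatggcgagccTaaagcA
Mettl7a2, chr15:100353317-100353376: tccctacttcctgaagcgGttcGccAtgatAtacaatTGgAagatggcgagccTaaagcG
Mettl7a1, chr15:100304954-100305013: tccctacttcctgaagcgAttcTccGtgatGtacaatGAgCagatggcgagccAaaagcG
In this stretch Mettl7a2 and Mettl7a3 share every base but the last, whereas Mettl7a1 differs along its length.

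A further stretch, coding bases 11 to 70 on the plus strand, is shown because it holds 2 of the 7 bases that separate Mettl7a3 from Mettl7a2, G57A and C70A (the Mettl7a2 base, the coding position, the Mettl7a3 base). The other 5 were G167A, A216G, C377T, G459A and C474T. Capitals again mark the positions that differ among the 3 genes.
Mettl7a3, chr15:100334940-100334999: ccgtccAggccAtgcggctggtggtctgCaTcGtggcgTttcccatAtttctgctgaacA
Mettl7a2, chr15:100353220-100353279: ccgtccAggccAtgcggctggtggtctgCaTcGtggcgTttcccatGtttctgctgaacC
Mettl7a1, chr15:100304857-100304916: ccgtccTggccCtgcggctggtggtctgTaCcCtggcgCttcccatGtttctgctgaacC
Mettl7b, the more distant family member on chromosome 10, differed from Mettl7a1 at 263 of 732 coding bases.

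The Dynlt1 copies are closer still. Dynlt1a, Dynlt1c and Dynlt1f had the same coding sequence of 339 bases in every position, and Dynlt1b differed from them at 1 base, A21C (the Dynlt1b base, the coding position, the base of the other copies). Coding bases 1 to 60 are shown because they hold that base, in capitals. They span more than 1 exon in each gene, on the plus strand for Dynlt1b and Dynlt1c and on the minus strand for Dynlt1a and Dynlt1f.
Dynlt1b: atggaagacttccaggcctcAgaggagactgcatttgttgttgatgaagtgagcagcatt
Dynlt1a, Dynlt1c and Dynlt1f: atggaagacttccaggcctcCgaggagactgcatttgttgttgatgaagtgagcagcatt

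Reads had 50 bases per end, so the share of 50-base windows that also occur in another gene's transcript shows how far a single read could be placed. Of the 683 windows in each Mettl7a coding sequence, 25.2% were shared for Mettl7a1, 69.7% for Mettl7a2 and 65.2% for Mettl7a3. For Mettl7a2, windows held only by Methig1 or Higd1c, which lie in the same row, were not counted as shared, here or over the whole transcript. Methig1 did count for Mettl7a1 and Mettl7a3, so the Mettl7a2 shares follow a narrower rule. Of the 290 windows in each Dynlt1 coding sequence, 92.8% were shared for Dynlt1b, which left 21 of its own, and 100% were shared for Dynlt1a, Dynlt1c and Dynlt1f. Mettl7b shared 0 of 683 coding windows and Dynlt3, the related dynein light chain gene on chromosome X, 0 of 299. The untranslated parts add some distinct sequence. Over the whole transcript the shared part was 24.8% in Mettl7a1, 54.1% in Mettl7a2, 48.7% in Mettl7a3, 67.7% in Dynlt1a, 83.2% in Dynlt1b, 93.7% in Dynlt1c and 93.1% in Dynlt1f. The Dynlt1a transcript also shares windows with the transcripts of its neighbours Tmem181a and Tmem181b-ps. A processed pseudogene on chromosome 6, Dynlt1-ps1, holds the same Dynlt1 coding windows and was not analysed here. The sources used here do not say how the authors divided fragments that match several copies. The level of any single copy is therefore uncertain, and the sum over each group is given beside it.

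The libraries carried the genotype their labels give. Tnfrsf1b measured 1.17, 1.12 and 0.924 FPKM in the TNFR2-KO libraries, against 7.49, 8.20 and 8.17 FPKM in the WT libraries. The FPKM of a library added up to between 655274 and 709593, and 12974 to 13625 named rows reached 1 FPKM. Relative depth, judged from the steps between low values with WT library 1 set to 1, ran from 0.880 to 1.10 in the TNFR2-KO libraries and from 0.732 to 1.02 in the WT libraries. Of 10 colon epithelium markers, 9 matched a row and each of these reached 1 FPKM in all libraries, with summed levels of 4972 to 6805 FPKM in TNFR2-KO and 4740 to 6643 FPKM in WT. Of these 9, 7 had the higher group mean on the log2 scale in TNFR2-KO and 2 the lower. Their median log2 difference was 0.13, against -0.03 over all tested rows.

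Libraries also differed in markers of tissue around the colon. The 10 skeletal muscle markers summed to 179 to 2388 FPKM in the TNFR2-KO libraries and to 3085 to 10085 FPKM in the WT libraries, with no overlap. The 10 adipocyte markers summed to 134 to 362 FPKM in TNFR2-KO and 474 to 1060 FPKM in WT, again with no overlap, and 1 of them, Lep, was listed at 0 in at least 1 library. Car3 in this sum measured 15.1, 230 and 141 FPKM in TNFR2-KO and 795, 269 and 304 FPKM in WT. It ranked the libraries as the skeletal muscle sum did. Fabp4 averaged 71.8 ± 7.86 FPKM in TNFR2-KO and 136 ± 31.5 FPKM in WT, and Pck1, which was higher in TNFR2-KO, 37.1 ± 4.69 and 24.0 ± 1.88 FPKM (SD, n = 3 each). The 10 skin markers summed to 43.2 to 646 FPKM in TNFR2-KO and 274 to 768 FPKM in WT, and the 10 smooth muscle markers to 6128 to 8462 and 6658 to 10647 FPKM in the same order, both with overlap. In skeletal muscle, skin and smooth muscle, 10 of 10 markers each had the lower group mean on the log2 scale in TNFR2-KO, and in adipocytes 7 of 8 tested. Of these 38 tested markers, 0 were called in limma at a Benjamini-Hochberg adjusted p under 0.05, and 7 had an unadjusted p under 0.05. Over all tested rows, 0.288% were called and 16.2% had such an unadjusted p. Every TNFR2-KO library lay below every WT library in 12.5% of all tested rows. The part of these differences in the values of the paralogs was not tested. In bulk tissue, fewer cells of a type and less RNA per cell cannot be told apart.

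In the Mettl7a group, the row on the right and the row in the middle of the cluster were both well above WT in TNFR2-KO colon. The most abundant row was a little above WT. Mettl7a3, the smallest contributor (chr15:100334929-100340169, mm10), measured 14.3, 13.8 and 13.1 FPKM in the TNFR2-KO libraries, against 9.00, 7.26 and 7.89 FPKM in the WT libraries. The lowest TNFR2-KO library lay well above the highest WT library. Its mean was 13.7 ± 0.591 FPKM in TNFR2-KO and 8.05 ± 0.881 FPKM in WT (SD, n = 3 each), 1.70-fold higher, a difference of 0.70 ± 0.09 on the log2(FPKM + 1) scale (SE).

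Mettl7a2 shares a row with the genes AB099516 and Higd1c (chr15:100353200-100384435), a stretch over which GENCODE places Mettl7a2, Methig1 and Higd1c on the same strand. Higd1c is a member of the hypoxia-induced gene domain family of mitochondrial proteins. The row therefore does not measure Mettl7a2 alone, and it is called the Mettl7a2 row below. It measured 22.4, 19.2 and 23.0 FPKM in the TNFR2-KO libraries, against 12.1, 11.6 and 13.0 FPKM in the WT libraries. TNFR2-KO library 2 was the lowest of its genotype, still above every WT library. The mean was 21.5 ± 2.02 FPKM in TNFR2-KO and 12.2 ± 0.701 FPKM in WT (SD, n = 3 each), 1.76-fold higher, with a log2 difference of 0.77 ± 0.09 (SE).

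Mettl7a1 (chr15:100304175-100314353) was by far the most abundant copy. It measured 109, 106 and 104 FPKM in the TNFR2-KO libraries, against 92.4, 97.7 and 98.9 FPKM in the WT libraries. The groups did not overlap, and relative to its level the gap between them was smaller than for the other Mettl7a rows. Its mean was 106 ± 2.18 FPKM in TNFR2-KO and 96.3 ± 3.44 FPKM in WT (SD, n = 3 each), 1.10-fold, with a log2 difference of 0.14 ± 0.07 (SE).

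In the Dynlt1 group, Dynlt1b stood apart from the other rows in size of difference. Dynlt1b (chr17:6430112-6436295) measured 33.0, 29.4 and 32.4 FPKM in the TNFR2-KO libraries, against 20.3, 19.0 and 19.6 FPKM in the WT libraries. Its mean was 31.6 ± 1.95 FPKM in TNFR2-KO and 19.6 ± 0.639 FPKM in WT (SD, n = 3 each), 1.61-fold higher, with a log2 difference of 0.66 ± 0.07 (SE). TNFR2-KO library 2 was again the lowest of its genotype, and the WT libraries lay close together.

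The other Dynlt1 rows were nearer to WT. Dynlt1a (chr17:6310545-6317474) measured 19.4, 16.0 and 19.7 FPKM in the TNFR2-KO libraries, against 14.6, 14.3 and 14.3 FPKM in the WT libraries, means of 18.3 ± 2.05 and 14.4 ± 0.175 FPKM (SD, n = 3 each) and a log2 difference of 0.32 ± 0.09 (SE). TNFR2-KO library 2 was close to the WT values, and the other TNFR2-KO libraries were well above them. The table has a pair of rows named Dynlt1f. One lies at chr17:6601671-6607899, where GENCODE M21 places Dynlt1c, and is called the Dynlt1c-position row below.

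The Dynlt1c-position row measured 24.1, 20.2 and 23.8 FPKM in the TNFR2-KO libraries, against 18.7, 18.3 and 18.0 FPKM in the WT libraries, a log2 difference of 0.29 ± 0.08 (SE). The row at the Dynlt1f gene itself (chr17:6646606-6655939) measured 27.7, 22.8 and 27.7 FPKM in the TNFR2-KO libraries, against 21.8, 22.2 and 21.7 FPKM in the WT libraries, a log2 difference of 0.23 ± 0.09 (SE). In both rows the groups did not overlap, but TNFR2-KO library 2 lay within 2 FPKM of the nearest WT library.

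**Figure D1:**
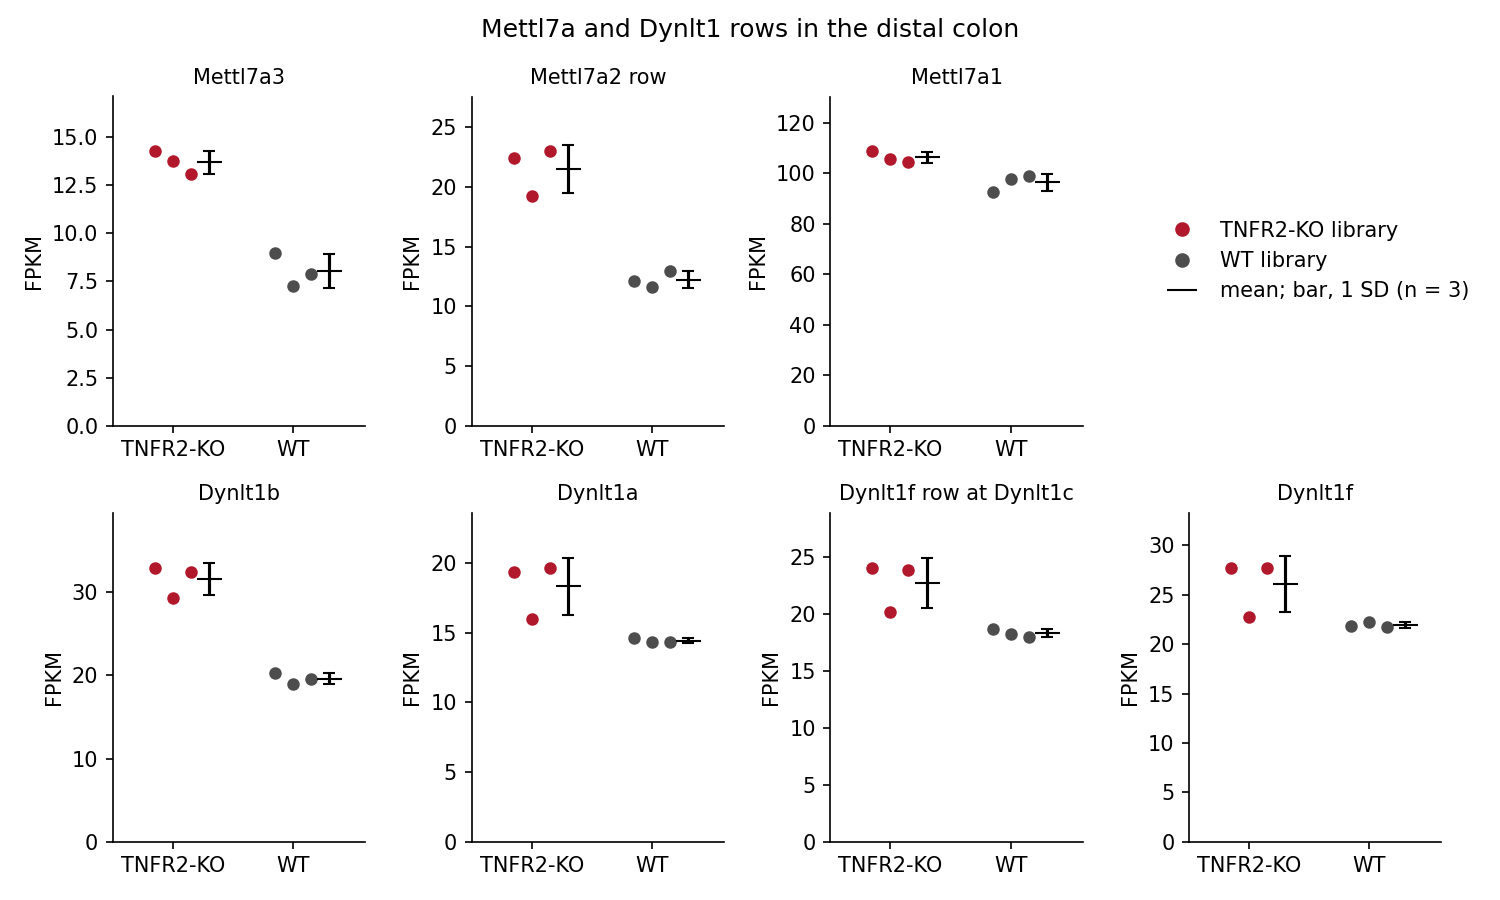
FPKM of the 7 rows by library, each panel with its own axis from 0. Dots are libraries in replicate order, TNFR2-KO on the left and WT on the right, with the mean and 1 SD beside them (n = 3). All TNFR2-KO libraries lie above all WT libraries in each panel, with the widest gaps for Mettl7a3, the Mettl7a2 row and Dynlt1b.

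Across all rows, 3 of 7 were called in limma at a Benjamini-Hochberg adjusted p under 0.05 (Mettl7a3, the Mettl7a2 row and Dynlt1b), where 0.288% of the 14564 tested rows were called in either direction and 0.185% in the higher direction. All TNFR2-KO libraries were above all WT libraries in 7 of 7 rows, where 9.3% of tested rows showed this. Because the members were chosen on this contrast, nothing is read from these counts or from the calls. The median log2 difference over all tested rows was -0.03, with the 5th and 95th percentiles at -0.49 and 0.28. In the authors' deposited table, 0 of the 7 rows were marked significant, where 1.02% of all rows were. That table gave log2 fold changes of 0.76 for Mettl7a3, 0.84 for the Mettl7a2 row, 0.14 for Mettl7a1, 0.68 for Dynlt1b, 0.34 for Dynlt1a, 0.31 for the Dynlt1c-position row and 0.25 for Dynlt1f.

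WT libraries 1 and 3 stood highest and TNFR2-KO library 1 lowest for the skeletal muscle markers. With these left out together, TNFR2-KO libraries 2 and 3 remained beside WT library 2 alone, so the values have no replicate check in WT. The log2 differences were then 0.80 for Mettl7a3, 0.81 for the Mettl7a2 row, 0.10 for Mettl7a1, 0.67 for Dynlt1b, 0.29 for Dynlt1a, 0.25 for the Dynlt1c-position row and 0.17 for Dynlt1f. Their sign was fixed in advance, since the groups overlapped in none of these rows. The marker difference also remained. Skeletal muscle markers summed to 2388 and 1817 FPKM in TNFR2-KO libraries 2 and 3, against 3085 FPKM in WT library 2. Adipocyte markers summed to 362 and 284 FPKM, against 488 FPKM, in the same order.

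FPKM is per length, so the levels as deposited can be ordered, with the same doubt about the single copies. In TNFR2-KO colon the means ran from Mettl7a1 down through Dynlt1b, Dynlt1f (26.1 ± 2.84 FPKM), the Dynlt1c-position row (22.7 ± 2.18 FPKM), the Mettl7a2 row and Dynlt1a to Mettl7a3 (SD, n = 3). The libraries of Dynlt1f and the Dynlt1c-position row overlapped, as did those of the Dynlt1c-position row and the Mettl7a2 row, and those of the Mettl7a2 row and Dynlt1a. In WT colon the order was Mettl7a1, Dynlt1f (21.9 ± 0.273 FPKM), Dynlt1b, the Dynlt1c-position row (18.3 ± 0.359 FPKM), Dynlt1a, the Mettl7a2 row and Mettl7a3, and no neighbours in it overlapped. In the deposited values, Dynlt1b stood above Dynlt1f in TNFR2-KO and below it in WT.

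The sum over each group takes out part of the doubt about how reads were divided. It does so in part only, since each row is scaled to its own length, and a fragment moved between rows of unequal length would change the sum. Fragments can also match genes outside the Dynlt1 sum, since Dynlt1-ps1 holds Dynlt1 coding windows and Dynlt1a shares windows with Tmem181a and Tmem181b-ps. The 3 Mettl7a rows summed to 145, 139 and 140 FPKM in the TNFR2-KO libraries, against 114, 117 and 120 FPKM in the WT libraries. The mean sum was 141 ± 3.43 FPKM in TNFR2-KO and 117 ± 3.11 FPKM in WT (SD, n = 3 each), 1.21-fold, with a log2 difference of 0.28 ± 0.03 (SE over libraries). The groups did not overlap, and the fold lay between that of Mettl7a1 and those of the smaller rows.

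For the Mettl7a2 row and Mettl7a3 alone, the sum was 35.2 ± 1.97 FPKM in TNFR2-KO and 20.3 ± 1.25 FPKM in WT (SD, n = 3 each), 1.74-fold. Mettl7a2 and Mettl7a3 are nearly identical in coding sequence only, and the Mettl7a2 row also holds AB099516 and Higd1c. The ratio of Mettl7a3 to the Mettl7a2 row ranged from 0.569 to 0.715 in TNFR2-KO and from 0.608 to 0.742 in WT, so the balance between these rows overlapped between the genotypes. The ratio of Mettl7a3 to Mettl7a1 averaged 0.129 ± 0.00317 in TNFR2-KO and 0.0838 ± 0.0120 in WT (SD, n = 3 each), and there the libraries did not overlap. Mettl7a3 was chosen on this contrast, so nothing is read from that separation.

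The 4 Dynlt1 rows summed to 104, 88.3 and 104 FPKM in the TNFR2-KO libraries, against 75.4, 73.9 and 73.7 FPKM in the WT libraries. TNFR2-KO library 2 was lower than its group but above every WT library. The mean sum was 98.7 ± 8.99 FPKM in TNFR2-KO and 74.3 ± 0.946 FPKM in WT (SD, n = 3 each), 1.33-fold, with a log2 difference of 0.40 ± 0.08 (SE over libraries). Without Dynlt1b, the remaining rows summed to 67.1 ± 7.06 FPKM in TNFR2-KO and 54.7 ± 0.569 FPKM in WT, 1.23-fold.

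Shares within each sum differed between the genotypes. Mettl7a3 and Dynlt1b were chosen on this contrast, and shares rest on the uncertain split of reads between copies. The shares and ratios here are therefore a description, and nothing is read from them. Mettl7a1 made up 75.1 ± 0.987% of the Mettl7a sum in TNFR2-KO and 82.6 ± 1.22% in WT, the Mettl7a2 row 15.2 ± 1.26% and 10.5 ± 0.476%, and Mettl7a3 9.69 ± 0.324% and 6.92 ± 0.894% (SD, n = 3 each). In absolute terms the smaller rows still carried much of the difference. Of the summed increase in FPKM, 39.8% lay in Mettl7a1, 37.5% in the Mettl7a2 row and 22.7% in Mettl7a3. The part in the Mettl7a2 row cannot be credited to Mettl7a2 alone, since AB099516 and Higd1c share that row. In the Dynlt1 sum, Dynlt1b made up 32.1 ± 1.04% in TNFR2-KO and 26.4 ± 0.620% in WT, and it carried 49.1% of the summed increase. Dynlt1f made up 26.4 ± 0.498% in TNFR2-KO and 29.5 ± 0.600% in WT, the Dynlt1c-position row 23.0 ± 0.136% and 24.7 ± 0.213%, and Dynlt1a 18.6 ± 0.451% and 19.4 ± 0.0121% in the same order. The ratio of Dynlt1b to Dynlt1f ranged from 1.17 to 1.29 in TNFR2-KO and from 0.853 to 0.929 in WT.

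**Figure D2:**
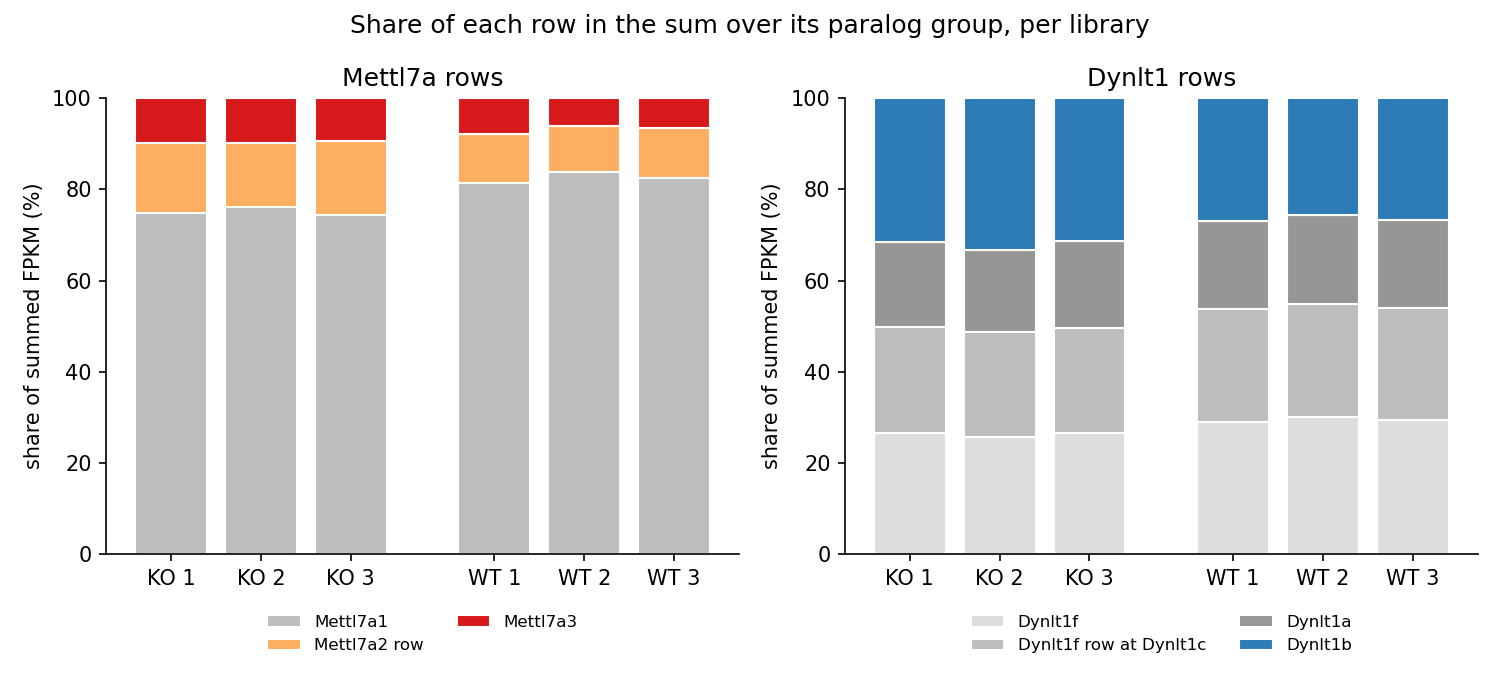
Share of each row in the summed FPKM of its paralog group, in percent, for the 3 TNFR2-KO libraries (KO 1 to KO 3) and the 3 WT libraries, with Mettl7a rows on the left and Dynlt1 rows on the right. Mettl7a1 takes a smaller and Dynlt1b a larger share in every TNFR2-KO library than in any WT library. Members were chosen on this contrast, so the shares are a description.

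The chromosomal neighbours of the clusters were chosen by position and not by their values, and were tested in limma with adjustment over all rows. Of 27 tested rows within 500 kb of either cluster, 0 were called and 6 had an unadjusted p under 0.05, where 16.2% of all tested rows had one. Their median log2 difference was 0.08, against -0.03 over all tested rows. The Mettl7a cluster spans 80.3 kb of chromosome 15. Slc11a2, a divalent metal ion transporter and the nearest row on its right, averaged 14.8 ± 0.945 FPKM in TNFR2-KO and 15.8 ± 0.925 FPKM in WT (SD, n = 3 each; limma, Benjamini-Hochberg adjusted p = 0.566). Atf1, a transcription factor of the CREB family and the nearest on the left, averaged 22.4 ± 0.464 and 21.3 ± 0.102 FPKM in the same order (adjusted p = 0.569). Beyond them, Letmd1, a mitochondrial membrane protein gene, differed by 0.28 ± 0.06 on the log2 scale (SE; adjusted p = 0.184), Dip2b by 0.19 ± 0.08 (adjusted p = 0.301), Larp4 by -0.08 ± 0.09 (adjusted p = 0.670) and Csrnp2 by 0.00 ± 0.10 (adjusted p = 0.997).

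The Dynlt1 cluster spans 345 kb of chromosome 17 and also holds copies of Tmem181, a membrane protein gene. Tmem181a, the nearest row on the left, averaged 24.4 ± 0.222 FPKM in TNFR2-KO and 20.6 ± 1.06 FPKM in WT (SD, n = 3 each), with a log2 difference of 0.24 ± 0.06 (SE; limma, Benjamini-Hochberg adjusted p = 0.218). Tulp4 differed by -0.09 ± 0.14 on the log2 scale (adjusted p = 0.780) and Gtf2h5, a subunit of the general transcription factor TFIIH, by -0.05 ± 0.06 (adjusted p = 0.732). On the right, Ezr, which links actin to the brush border membrane, averaged 224 ± 30.2 and 250 ± 39.9 FPKM in TNFR2-KO and WT (adjusted p = 0.619), Rsph3b differed by 0.08 ± 0.08 on the log2 scale (adjusted p = 0.662), and the small RNA Mir692-1, which reached 28.7 FPKM in TNFR2-KO library 1 and was listed at 0 in 3 libraries, had an adjusted p of 0.417.

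Inside the cluster, next to Dynlt1b, lies the row Tmem181b-ps (chr17:6438816-6451932), which was picked for mention on seeing its values. In it, 8.98, 10.8 and 9.44 FPKM were found in the TNFR2-KO libraries, against 5.65, 6.28 and 5.30 FPKM in the WT libraries. All TNFR2-KO libraries were above all WT libraries, as in 9.3% of all tested rows. Its log2 difference was 0.67 ± 0.09 (SE; limma, Benjamini-Hochberg adjusted p = 0.0541), beside 0.66 for Dynlt1b, and it did not pass the threshold; with a filter of at least 1 FPKM or without WT library 2 it did (adjusted p = 0.0482 and 0.0470). Tmem181c-ps, beside the Dynlt1c-position row, averaged 5.37 ± 0.145 FPKM in TNFR2-KO and 3.89 ± 0.154 FPKM in WT (SD, n = 3 each; adjusted p = 0.139). The Tmem181 rows are themselves copies of one another, and Tmem181a and Tmem181b-ps share windows with Dynlt1a, so their separate levels are uncertain for the same reason as those of the Dynlt1 rows.

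**Figure D3:**
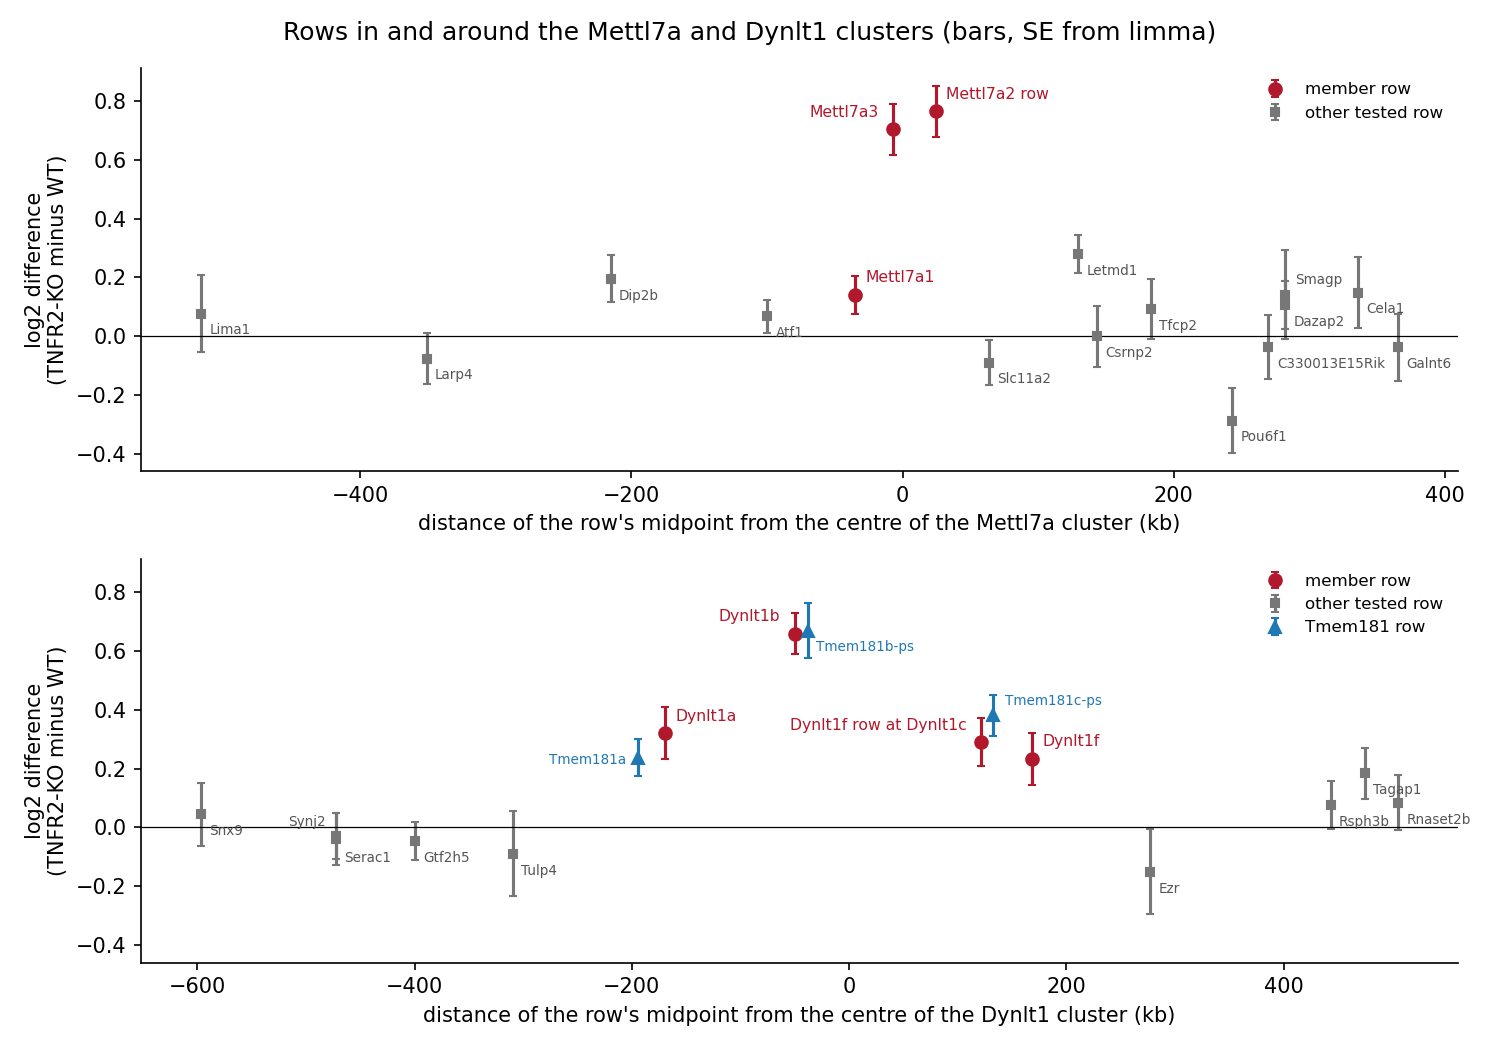
Log2 difference, TNFR2-KO minus WT on the log2(FPKM + 1) scale, of the member rows (red circles), the Tmem181 rows (blue triangles) and other tested rows (grey squares) within 500 kb of each cluster, against distance in kb from the cluster's centre. Bars are SE from limma, and Mir692-1 is left out because of its wide spread. Tmem181b-ps sits level with Dynlt1b, while rows outside the clusters lie between -0.29 and 0.28.

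Other genes of the 2 pathways were read from 8 lists with 118 genes, of which 102 were tested. In limma, 0 of the 102 passed an adjusted p of 0.05 in either direction, and 15 had an unadjusted p under 0.05, where 0.288% and 16.2% of all tested rows did. Of 28 METTL-named methyltransferases, a group that includes the enzymes that methylate RNA and protein, 24 were tested, with a median log2 difference of 0.02. Mettl7b, the nearest relative of the Mettl7a genes, averaged 55.4 ± 11.1 FPKM in TNFR2-KO and 53.5 ± 11.1 FPKM in WT (SD, n = 3 each; adjusted p = 0.917). Mettl9, a histidine methyltransferase, averaged 55.2 ± 3.61 and 52.6 ± 2.80 FPKM in TNFR2-KO and WT (adjusted p = 0.682). In both, the difference of the means was smaller than the SD of either genotype.

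Of 24 small-molecule methyltransferases and enzymes of SAM supply, 18 were tested, with a median log2 difference of -0.06. Ahcy, which breaks down S-adenosylhomocysteine, averaged 101 ± 14.3 FPKM in TNFR2-KO and 86.9 ± 8.20 FPKM in WT (SD, n = 3 each; limma, Benjamini-Hochberg adjusted p = 0.433). Mat2a, which makes SAM, averaged 68.9 ± 2.71 and 78.6 ± 7.73 FPKM in the same order (adjusted p = 0.347). Of 21 lipid droplet proteins, 20 were tested, with a median of -0.11, and 2 had higher and 5 lower values at an unadjusted p under 0.05, where 16.2% of all tested rows had such a p in either direction. Hsd17b11, a lipid droplet dehydrogenase, averaged 238 ± 19.6 FPKM in TNFR2-KO and 199.5 ± 13.8 FPKM in WT (adjusted p = 0.274), and Plin2, a protein of the droplet coat, 87.6 ± 3.52 and 76.6 ± 1.37 FPKM (adjusted p = 0.271). The 5 lower ones included Plin1 and Cidec, which are also on the adipocyte marker list, and the part of fat tissue in their values was not tested.

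The dynein machinery other than Dynlt1 gave 40 tested genes on 5 lists, with 0 called and 3 at an unadjusted p under 0.05, where 0.288% and 16.2% of all tested rows were. Of the other light chains, 7 of 10 were tested, with a median log2 difference of -0.10. Dynlt3, the closest relative of Dynlt1 with its own distinct sequence, averaged 42.1 ± 1.28 FPKM in TNFR2-KO and 46.3 ± 2.66 FPKM in WT (SD, n = 3 each; limma, Benjamini-Hochberg adjusted p = 0.384). Dynlrb1, a roadblock light chain, averaged 179 ± 15.9 and 178 ± 16.6 FPKM in TNFR2-KO and WT (adjusted p = 0.986), and Dynll1, the LC8 light chain, 94.9 ± 6.25 and 107 ± 4.91 FPKM (adjusted p = 0.343). None of these light chains passed the threshold.

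Of the heavy and intermediate chains of cytoplasmic dynein 1, 4 of 5 were tested, with a median of 0.00. Dync1i2, an intermediate chain of the kind that DYNLT1 binds, averaged 40.5 ± 0.644 FPKM in TNFR2-KO and 40.7 ± 0.895 FPKM in WT (SD, n = 3 each; limma, adjusted p = 0.974), and Dync1li2, a light intermediate chain, 32.1 ± 0.819 and 33.0 ± 0.738 FPKM (adjusted p = 0.766). All 12 dynactin genes were tested, with a median of -0.06. Its most abundant members, Capzb and Capza2, which cap actin filaments, averaged 207 ± 7.54 and 117 ± 6.18 FPKM in TNFR2-KO, against 221 ± 0.604 and 131 ± 10.6 FPKM in WT (adjusted p = 0.502 and 0.389). Of 14 adaptors and regulators, 13 were tested, with a median of -0.07, among them Trak1, an adaptor for mitochondria, at 70.6 ± 3.86 and 62.7 ± 3.87 FPKM in TNFR2-KO and WT (adjusted p = 0.335), and Pafah1b1, the LIS1 regulator of dynein, at 31.7 ± 0.488 and 32.0 ± 0.778 FPKM (adjusted p = 0.947). The 4 tested dynein 2 genes, which serve transport in cilia, had a median of -0.03; Dync2li1 and Wdr34 differed by -0.22 ± 0.12 and -0.02 ± 0.10 on the log2 scale (SE; adjusted p = 0.403 and 0.939).

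**Figure D4:**
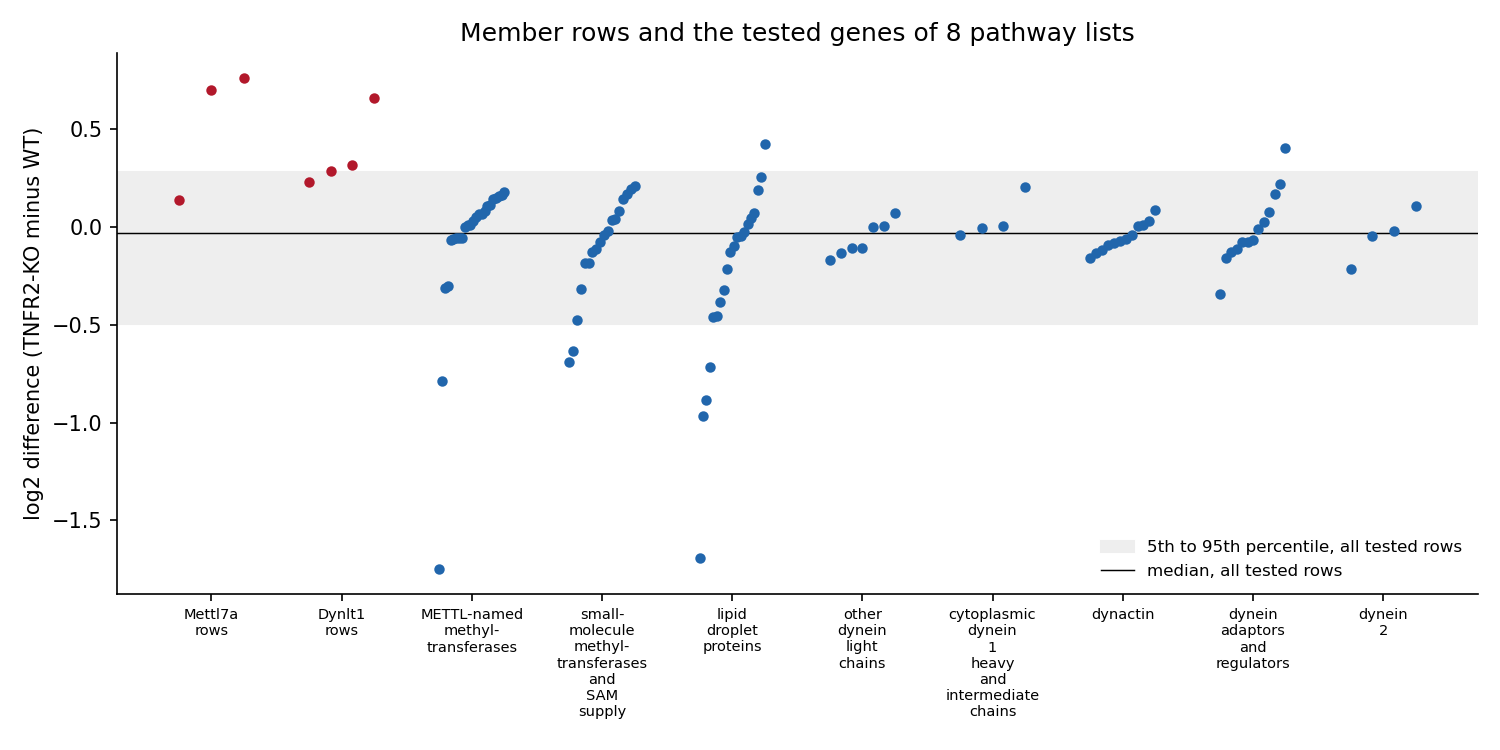
Log2 difference, TNFR2-KO minus WT on the log2(FPKM + 1) scale, of the member rows (red) and of each tested gene of 8 pathway lists (blue), sorted within each column. The line is the median of all 14564 tested rows at -0.03 and the shaded band runs from their 5th to their 95th percentile; Mettl7a3, the Mettl7a2 row and Dynlt1b lie well above the band, Dynlt1a and the Dynlt1c-position row just above it, and Mettl7a1 and Dynlt1f within it.

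The rows most like Mettl7a3 and Dynlt1b over the 6 libraries were listed by Pearson r of log2(FPKM + 1), as a description. All points share the genotype difference on which both members were chosen, so a high r reflects that difference as well. Of 11912 rows, 31 exceeded an r of 0.95 with Mettl7a3 and 64 with Dynlt1b. The 5 highest for Mettl7a3 were Mterfd2 (r = 0.992), a mitochondrial transcription termination factor relative, Lnx1 (0.989), a ubiquitin ligase, Aspg (0.985), an asparaginase, 4932411L15 (0.982) and Trim21 (0.980), a ubiquitin ligase that binds antibodies in the cytosol. Among the 5 highest for Dynlt1b were the sugar phosphate transporter gene Slc37a2 (r = 0.998), the condensin subunit Smc4 (0.995), the cell cycle phosphatase Cdc25c (0.992) and Gbp1 (0.989), an interferon-inducible GTPase. Slc37a2 averaged 74.1 ± 9.58 FPKM in TNFR2-KO and 26.1 ± 1.07 FPKM in WT, and like Dynlt1b it was lowest among the TNFR2-KO libraries in library 2.

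Mettl7a3 and Dynlt1b were chosen on the genotype difference, which is part of each r given here, so nothing is read from these values. Between the members, r over the 6 libraries was 0.974 for Mettl7a3 and Dynlt1b. It was 0.992 for Dynlt1b and the Mettl7a2 row, 0.949 for Mettl7a3 and the Mettl7a2 row, and 0.820 for Mettl7a3 and Mettl7a1. Dynlt1b had an r of 0.931 with Dynlt1a, 0.937 with the Dynlt1c-position row and 0.865 with Dynlt1f.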

How the data were processed

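The deposited table holds 1 FPKM value per gene and library, per the file headers. The authors used Tophat2 and Bowtie2 to align 50-base reads from both fragment ends, Cufflinks for assembly and Cuffdiff 2 for their test, per the series' design text. The submitters' processing notes name mm10 as the build. The sources used here do not give tool versions, annotation, strandedness or the handling of reads that match several copies. The authors' deposited log2 fold changes and p-values were used for description only. Starts in the deposited table count from 0, so 1 was added. FPKM values are not read counts, so total depth and counting error are unknown; no 2 libraries held the same values.

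The test was limma 3.58.1 (R 4.3.3) on log2(FPKM + 1), with trend and robust moderation, no covariate and all 6 libraries. The 14564 named rows with a mean of at least 0.5 FPKM were tested, and a call means a Benjamini-Hochberg adjusted p under 0.05. Fold changes on this scale understate changes of low rows. Member rows were in this fit, but since they were chosen on its contrast their values are a description and their calls support nothing; sums were not tested. The fit was tested on simulated data. Alternatives were the pseudocount, low-value filter, scaling, small RNA rows, moderation, a replicate block, left-out libraries, rows in the sum and window size.

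Sequences come from GENCODE M21 transcripts (GRCm38), 1 transcript per gene. The text names every row of the rule, the called and the 2 most abundant tested genes of each list, the called neighbours and the 3 nearest on each side, the 5 rows most like Mettl7a3 and Dynlt1b (1 of them is not reported here), and Tnfrsf1b; Dynlt3, Tmem181b-ps, Tmem181c-ps, Plin1, Cidec and Nr4a1 were added after their values were seen. The members and lists were chosen with earlier results of these data known.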

Additional observations from a re-analysis of the deposited data

Results flagged for a closer look

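A pair of rows inside the clusters carry no gene name and entered no comparison, and both had more signal in TNFR2-KO than in WT libraries. The row at chr17:6456344-6457035, between the Dynlt1 copies, measured 1.06, 1.96 and 1.73 FPKM in the TNFR2-KO libraries, against 0.796, 0.469 and 0.550 FPKM in the WT libraries, means of 1.59 ± 0.468 and 0.605 ± 0.171 FPKM (SD, n = 3 each). The row at chr15:100329470-100329724, between Mettl7a1 and Mettl7a3, measured 3.05, 3.55 and 5.07 FPKM in the TNFR2-KO libraries, against 2.17, 2.43 and 0.843 FPKM in the WT libraries, means of 3.89 ± 1.05 and 1.81 ± 0.851 FPKM. The groups did not overlap in either row, and 9.3% of the tested named rows also had all TNFR2-KO above all WT libraries. Levels were low in both rows, and nothing is read from the separation. Rows without a gene name were not tested.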

How the results depend on the processing

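Under the alternatives, Mettl7a3 lay between 0.64 and 0.80 on the log2 scale, the Mettl7a2 row between 0.72 and 0.84, Dynlt1b between 0.63 and 0.71, and Mettl7a1 between 0.10 and 0.18. All 7 member rows kept their direction and moved by less than 1 SD, but nothing is read from this. The groups overlapped in none of these rows, so leaving out libraries could not reverse a sign. The filter, small RNA, moderation and block settings leave the difference of a row as it is. The log2 difference of the Mettl7a sum, 0.28, was 0.32 with upper quartile scaling and 0.20 with rows naming a single gene only; that of the Dynlt1 sum stayed between 0.36 and 0.48. Rows called over the whole table, 42, were 22 without small RNA rows, 24 with the replicate block and 21 to 70 with 1 library left out. Member rows called, 3, were 0 with the replicate block and 0 to 3 with 1 library left out (0 without TNFR2-KO library 1, TNFR2-KO library 3 or WT library 3, and 1 without WT library 1), with fewer libraries in each such fit. Neighbours called, 0, were 1 with a mean of at least 1 FPKM (Tmem181b-ps), 1 with a window of 1000 kb (Nr4a1, log2 difference -1.29) and 0 to 1 with 1 library left out. The pathway lists had 0 called genes under all 14 alternatives. The sample titles give replicate numbers but state no pairing, so the block rests on a shared number only. Same-numbered libraries correlated at -0.37, -0.34 and 0.21 in their deviations from the group means over all tested rows. With 3 libraries per genotype, these values cannot show whether libraries were paired. The cause of these changes was not tested. Depth limits low rows and short copies most, and no alternative addresses how fragments shared by several copies were divided.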
